A study of Rattus norvegicus with 29 samples.

Results

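Fasting in diet-induced obese rats was examined in peripheral blood mononuclear cells, the lymphocytes and monocytes that a Ficoll gradient separates from blood. The comparison set 5 rats on a cafeteria diet that had gone without food for 14 h against 5 rats on the same diet that ate freely. These 10 arrays were taken by their labels from the 29 arrays of the series. Every rat was a 6-month-old male Wistar. The cafeteria rats had been offered a fat-rich, energy-dense cafeteria diet on top of standard chow for 4 months, and the control rats only chow. A further 3 sets of arrays served as reference here: 4 control rats that were fed, 5 control rats fasted for 14 h, and 5 cafeteria rats that were fasted and then given back their food for 6 h. Each array carried the RNA of a single rat in Cy5 (red) and a common pool of RNA from all groups in Cy3 (green), so each value is a log2 ratio of that rat to the pool. The question was which transcripts of blood cells differ between the fed and the fasted state in obese animals.

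In fasting, insulin falls, glucocorticoids rise and most tissues turn from glucose to fatty acids. Blood mononuclear cells carry receptors for insulin and for glucocorticoids, and the number of lymphocytes and monocytes in blood itself moves with meals and with stress hormones. The glucocorticoid receptor binds DNA and raises genes such as Per1, Klf9 and Sgk1, while it is known for lowering inflammatory chemokines. FOXO factors, which insulin keeps out of the nucleus, raise Irs2 and other genes of the fasted state. Because blood is a mixture of cells, fewer cells of a type and less RNA per cell cannot be told apart in these measurements.

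The RNA had the markers of mononuclear cells. All 21 measured T cell markers, all 13 B cell markers and all 17 NK cell markers were well above background on all 10 arrays, as were 15 of 17 monocyte markers. Markers of platelets (19 of 20), of red cell precursors (17 of 19) and of neutrophils (9 of 14) were also above background on all 10 arrays. The median Cy5 signal of an array lay between 103 and 154 intensity units, and between 53.3 and 66.7% of probes were well above background, over all 29 arrays. The arrays were not spread evenly over the 8 slides and the 2 runs in which the scan images were converted to values. Of the cafeteria arrays, 4 fed and 1 fasted fell in the first run, and 1 fed and 4 fasted in the second. Slides 1 and 8 each held 1 fed and 1 fasted cafeteria rat, and these pairs are given below as within-slide values.

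Fasting changed a limited set of transcripts in cafeteria rats. Of 24272 genes tested, 113 were higher in fasted rats (0.466% of genes tested) and 92 lower (0.379%) at an adjusted p under 0.05 in limma's moderated test with Benjamini-Hochberg adjustment over all genes. These called genes moved by a median of 0.47 on the log2 scale. Only 5 rises exceeded 2-fold, and 0 falls did. For 177 of the 205 called genes, the 5 fasted and the 5 fed arrays did not overlap, a separation for which the test chose them. Over all genes tested, the fasted arrays lay wholly above the fed arrays in 1.36% and wholly below in 1.07%. The median change over all genes was 0.0043. The rises were largest in the chemokines Cxcl2 and Ccl2 and included genes that glucocorticoids induce and genes of insulin and FOXO signalling. The falls were largest in Id3 and included Bcl6 and the receptors Lpar6 and Gpr18.

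The number of calls changed with the arrays left out and with the batch terms in the model. It was 34 without fed rat 1, 25 without fed rat 7, 61 without fed rat 13, 54 without fasted rat 5, 10 without fasted rat 11 and 127 without fasted rat 14. With the run as a block 22 genes were called, with the slide as a block 1, and with median centring in place of loess 0 (876 at an unadjusted p under 0.05). The 205 called genes kept their sign in each of these settings. Their median size was 0.46, 0.44 and 0.51 in the same order, against 0.47. Of them 205, 205 and 165 had an unadjusted p under 0.05 by limma with that sign. Fasted rat 11 had the most extreme fasted value, away from the fed group, in 62.4% of the 205 called genes, and fed rat 1 the most extreme fed value in 45.9%. The 1 pair on slide 1 differed in the called direction for 205 of 205 genes by a median of 0.63, and the pair on slide 8 for 201 of 205 by a median of 0.25. All of these arrays took part in the choice of the genes. Of the 49 called genes named here and in the closing paragraphs, 46 lost the call without fasted rat 11, 44 without fed rat 7, 40 without fed rat 1, 38 without fasted rat 5 and 32 without fed rat 13. With the run as a block 47 lost it, and with the slide as a block or median centring all 49 did. The part of the batch in the change was not tested beyond these values.

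**Figure D1:**
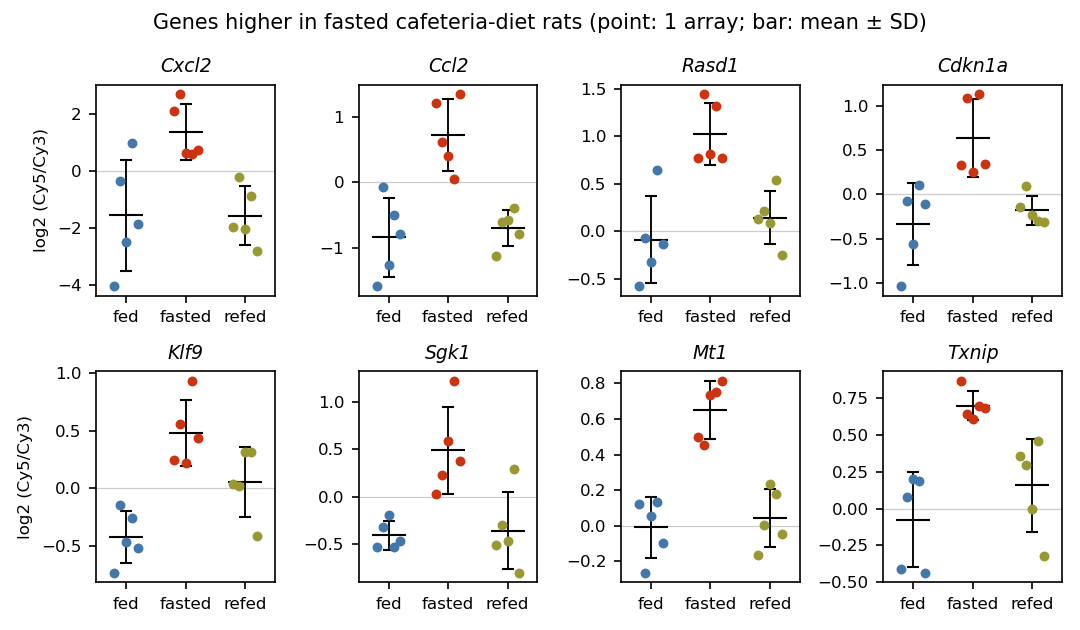
Log2 ratio of Cy5 to Cy3 for 8 genes that were higher in fasted cafeteria rats, with 1 point for each array (5 fed, 5 fasted, 5 refed) and the mean ± SD as a bar. In all panels but Cxcl2 the fasted points lie above every fed point, and the refed Klf9 mean lies between its fed and fasted means.

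The largest rise was that of Cxcl2, a chemokine that draws neutrophils and is made by activated monocytes. Its log2 ratio was -4.06, -0.34, -2.51, 0.99 and -1.86 in fed rats 1, 4, 7, 10 and 13, against 2.11, 2.71, 0.63, 0.59 and 0.76 in fasted rats 2, 5, 8, 11 and 14. The fed rats were widely spread, and fed rat 10 lay within the fasted range, so the groups overlapped. The change was 2.92 ± 0.71 (SE), a 7.56-fold rise (limma adjusted p = 0.0443), and it was 6.77 on slide 1 and 2.46 on slide 8. Ccl2, which recruits monocytes through the receptor Ccr2, was at -1.59, -0.08, -1.26, -0.50 and -0.78 in the fed rats and at 1.21, 0.61, 0.40, 0.05 and 1.34 in the fasted rats. All 5 fasted rats were above all 5 fed rats. The rise was 1.56 ± 0.28, or 2.96-fold (limma adjusted p = 0.0111), with 2.19 on slide 1 and 1.29 on slide 8. Cxcl2 was past the threshold in only 5 of 22 alternative settings, with a limma adjusted p of up to 0.436, and Ccl2 in 18 of 22.

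Of the 19 measured chemokines and cytokines, 2 were called higher and 0 lower, beside 0.466% and 0.379% of all genes. The list's median change was 0.12, against 0.0043 over all genes. At an unadjusted p under 0.05, 6 members were higher and 1 lower, where 5.29% of all genes were higher and 5.25% lower. The next largest differences, named after their values were seen, were in Cxcl10 (1.17, adjusted p = 0.0574), Cxcl1 (1.08, adjusted p = 0.0764), Il1b (0.78, adjusted p = 0.228) and Cxcl3 (0.64, adjusted p = 0.114), all by limma and none past the threshold. Cxcl10 is induced by interferon, and Cxcl1 and Cxcl3 bind the same neutrophil receptor as Cxcl2. Their probes are for related transcripts, and cross-hybridisation was not tested. In Cxcl1 and Cxcl3, fasted rat 5 was highest by a wide margin, at 2.15 and 1.41. Tnf and Il6, the classical inflammatory cytokines, differed by -0.04 and -0.15 (limma adjusted p = 0.785 and 0.130). Il6 was the 1 member lower at an unadjusted p under 0.05 (0.00296 by limma). It was well above background on 4 of 5 fed and 1 of 5 fasted arrays, so the size of its difference is uncertain. Over the alternative settings that difference ran from -1.59 to -0.11. The list had 0 calls with the run or the slide as a block, 1 when any of fed rats 1, 7 and 13 or fasted rats 5, 8, 11 and 14 was left out, and 4 without fed rat 10.

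Monocyte markers gave some of the same arrays at the ends of the range. The mean log2 ratio of the 17 monocyte markers ran from -0.65 to 0.33 in fed rats and from -0.12 to 0.45 in fasted rats. Fed rat 1 was lowest of the 10 (-0.65) and fed rat 7 next (-0.41), the 2 fed rats in which Cxcl2 and Ccl2 were lowest. Fasted rat 5, highest for Cxcl2, was highest for the monocyte markers (0.45). Ccl2 was instead highest in fasted rats 14 (1.34) and 2 (1.21), with fasted rat 5 at 0.61. Of these markers 0 were called, beside 0.466% of all genes called higher and 0.379% lower. By direction 10 were higher and 7 lower, where 51.8% of all genes were higher. Vcan (1.09, adjusted p = 0.0711) and Cd14 (1.01, adjusted p = 0.228), the co-receptor for bacterial endotoxin, were among the 3 largest differences by limma, while Tlr4 (-0.35, adjusted p = 0.351) was the lowest, and the list's median was 0.03. The part of monocyte number in the chemokine rise was not tested.

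The RefSeq promoter of Cxcl2 is shown because its transcript changed the most. The 250 bases before its start in the GRCr8 assembly lie on the minus strand at chr14:17467256-17467505. Capitals mark matches to the core of a common form of the NF-kB element, GGNNTTTCC, searched on both strands.

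Cxcl2: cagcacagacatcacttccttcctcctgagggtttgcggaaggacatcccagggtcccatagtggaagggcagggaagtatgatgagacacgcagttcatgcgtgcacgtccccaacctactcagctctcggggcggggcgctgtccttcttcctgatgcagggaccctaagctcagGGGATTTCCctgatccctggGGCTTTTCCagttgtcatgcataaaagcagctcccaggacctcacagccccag

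It holds 2 matches, which begin 73 and 53 bases before the start. The same letters occur in 5.18% of 27457 rat promoters of this length. They occur in 2 of the 49 promoters of risen genes found in the table (4.08%) and in 4 of the 52 of fallen genes (7.69%). A match is a description of the sequence and not a measured site.

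Genes that glucocorticoids induce were the largest group of rises on the lists used. Of 24 measured members, 5 rose (Cdkn1a, Klf9, Sgk1, Per1 and Mt1) and 0 fell, and the list's median change was 0.26 against 0.0043 over all genes. Over all genes 0.466% were called higher and 0.379% lower. At an unadjusted p under 0.05, 11 members were higher and 0 lower, beside 5.29 and 5.25% of all genes. In control rats the list's median change was 0.002, with 0 members called higher and 1 lower, beside 0.177% of all genes called. There 5 members were higher and 2 lower at an unadjusted p under 0.05 by limma, beside 2809 of 24272 genes in either direction. Cdkn1a, Klf9, Sgk1, Per1 and Mt1 were also higher in fasted control rats, by 0.25, 0.59, 0.56, 0.45 and 0.33, none past the adjusted threshold. The difference between diets had an unadjusted p under 0.05 by limma in 5 members, beside 777 of 24272 genes. It was past the adjusted threshold in none. Klf9, a Krüppel-like repressor, was at -0.74, -0.15, -0.47, -0.26 and -0.52 in the fed rats and at 0.25, 0.56, 0.22, 0.94 and 0.44 in the fasted rats. The groups did not overlap, and the rise was 0.91 ± 0.18 (SE), or 1.88-fold (limma adjusted p = 0.0203). Sgk1, a kinase that controls sodium channels, was at -0.53, -0.32, -0.19, -0.54 and -0.46 in the fed rats and at 0.02, 0.22, 0.59, 1.22 and 0.38 in the fasted rats. Fasted rat 11 was the highest, and all fasted rats were above all fed rats. Sgk1 rose by 0.90 ± 0.22 (limma adjusted p = 0.0447).

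Cdkn1a, the cell cycle inhibitor p21, was at -1.04, -0.08, -0.55, 0.11 and -0.10 in the fed rats and at 0.34, 1.09, 0.25, 1.13 and 0.35 in the fasted rats, a rise of 0.96 ± 0.20. Per1, a repressor of the circadian clock, rose by 0.75 ± 0.18, though fed rat 10 (0.03) lay above fasted rat 2 (-0.06). Mt1, a metallothionein that binds zinc, was at 0.12, -0.26, 0.05, 0.13 and -0.10 when fed and at 0.50, 0.45, 0.73, 0.75 and 0.82 when fasted, a rise of 0.66 ± 0.13 (limma adjusted p = 0.0178). Unlike the other 4 genes, Mt1 differed less on slide 1 (0.33) than on slide 8 (0.77). Cdkn1a differed by 2.13 and 0.41, Klf9 by 1.30 and 0.40, Per1 by 1.63 and 0.29, and Sgk1 by 0.75 and 0.35 on slides 1 and 8.

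Other members gave values short of the threshold. Tsc22d3, which encodes GILZ, a mediator of glucocorticoid action, differed by 0.63 (limma adjusted p = 0.0549). Dusp1, a phosphatase of stress kinases, differed by 0.64 (adjusted p = 0.435), with fed rats from -1.59 to 0.67. Fkbp5, a chaperone of the glucocorticoid receptor, differed by 0.30 (adjusted p = 0.334 by limma). Nr3c1, the receptor itself, stood at 0.12 ± 0.12 (SD, n = 5) when fed and 0.07 ± 0.08 when fasted. The number of called members was 0 with the run or the slide as a block, 0 without fed rat 7 or without fasted rat 11, 1 without fed rat 1 or without fasted rat 5, and 2 without fed rat 13.

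The immediate early genes, a first and short-lived wave of transcription after stimulation, were mostly higher in fasted rats but rarely past the threshold. Of 37 measured, 1 rose (Per1, which is also on the glucocorticoid list), beside 0.466% of all genes. At an unadjusted p under 0.05, 18 were higher and 1 lower, beside 5.29 and 5.25% of all genes. The list's median was 0.33. Egr1 and Atf3, transcription factors of this class, differed by 1.06 and 1.06 (limma adjusted p = 0.155 and 0.0696), and Jun and Fos by 0.78 and 0.63 (adjusted p = 0.409 and 0.413). Egr1 was at -0.94, 0.13, -0.50, 0.78 and -0.30 when fed and at 1.63, 1.53, 0.53, 0.51 and 0.29 when fasted. Fed rat 10 again lay within the fasted range.

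**Figure D2:**
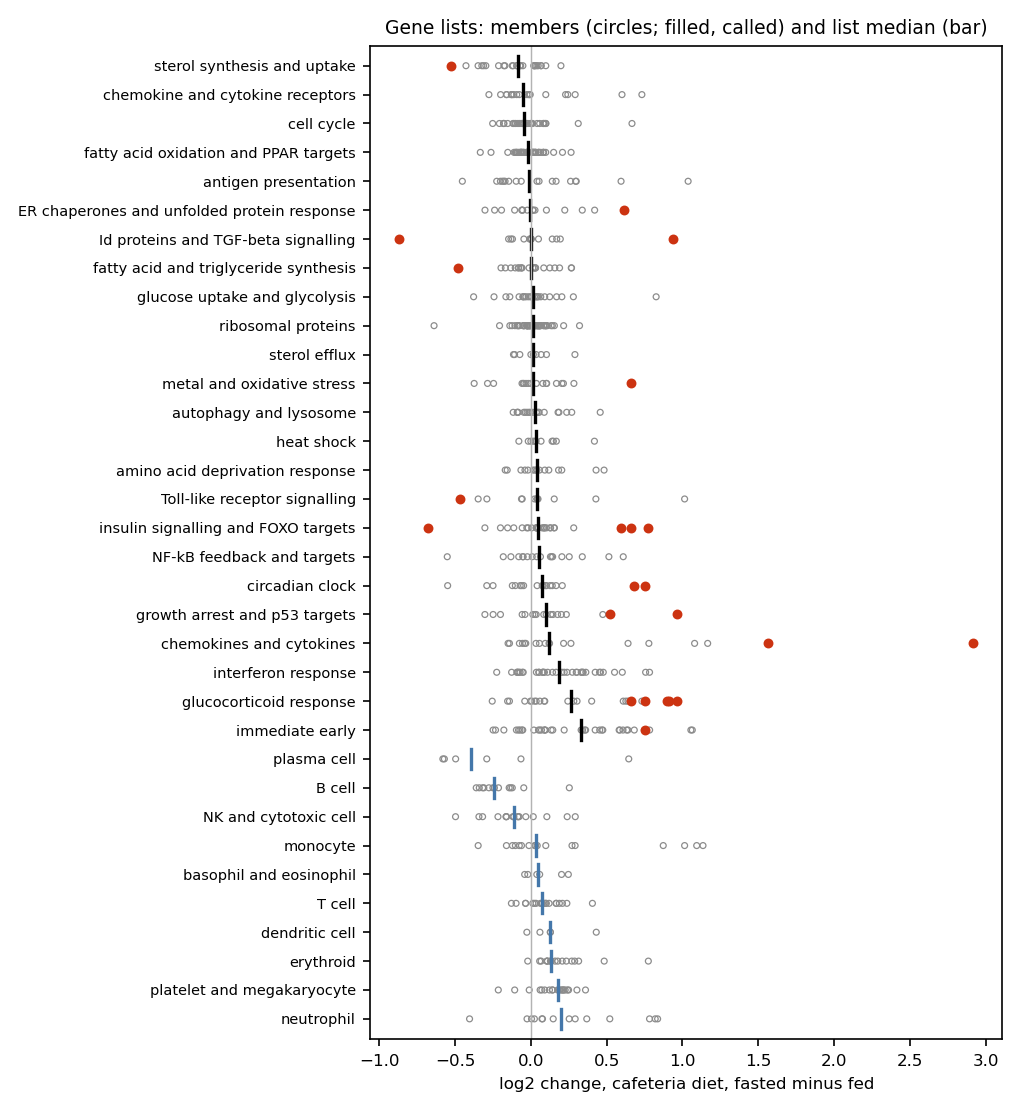
Log2 change from fed to fasted in cafeteria rats for every measured member of each gene list (open circles; filled circles were called at an adjusted p under 0.05), with the list median as a bar, black for response lists and blue for cell type markers. The glucocorticoid and immediate early medians stand at 0.26 and 0.33; no cell type list has a filled circle, and Slc27a2, at -2.29, is left off the axis.

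Genes of insulin and FOXO signalling changed in both directions. Of 27 measured members, 3 rose (Txnip, Trib2 and Irs2) and 1 fell (Bcl6), beside 0.466 and 0.379% of all genes, and the list's median was 0.05. Txnip, which limits glucose uptake, was at -0.41, 0.08, 0.20, 0.19 and -0.44 in the fed rats and at 0.87, 0.64, 0.61, 0.70 and 0.68 in the fasted rats. The 5 fasted rats lay within a narrow band above all the fed rats, and the rise was 0.77 ± 0.17, or 1.71-fold (limma adjusted p = 0.0271). Irs2, the adaptor that links the insulin receptor to its kinases, stood at 0.001 ± 0.12 (SD, n = 5) when fed and 0.60 ± 0.26 when fasted. It rose by 0.59 ± 0.13 (SE), and its 3 other probes had the same sign. Trib2, a pseudokinase, rose by 0.66 ± 0.16 but was past the threshold in only 5 of 22 alternative settings. Insr, the insulin receptor, differed by -0.11. The list had 0 rises called without fed rat 1, fed rat 7, fasted rat 5 or fasted rat 11, and with the run or the slide as a block.

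Bcl6, a repressor needed for germinal centre B cells and follicular T cells, was at 0.18, 0.56, 0.14, 0.10 and 0.48 in the fed rats and at -0.31, -0.04, -0.45, -0.44 and -0.69 in the fasted rats. The groups did not overlap. Bcl6 fell by 0.68 ± 0.15 in cafeteria rats (limma adjusted p = 0.0329), by 0.22 on slide 1 and by 0.88 on slide 8. In control rats it fell by 1.05 (limma adjusted p = 0.00407).

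Several single genes of signalling and stress also rose. Rasd1, a Ras-like protein first known as induced by dexamethasone, was at -0.58, -0.07, -0.32, 0.65 and -0.13 when fed and at 0.77, 1.44, 0.81, 1.32 and 0.78 when fasted, a 2.17-fold rise (limma adjusted p = 0.0197). Chst2, a sulfotransferase that modifies selectin ligands, rose by 1.04 ± 0.24, with fasted rat 11 (1.17) far above the next fasted rat (0.31). Pde4d, which breaks down cyclic AMP, rose by 0.97 ± 0.23, and its 2 other probes had the same sign. Ifrd1 rose by 0.98 ± 0.20 and Zfp36l2, which destabilises AU-rich messages, by 0.78 ± 0.18. Nfil3, a clock-linked repressor, rose by 0.68 ± 0.16. Gadd45a, a growth arrest gene, rose by 0.52 ± 0.12, Herpud1, an endoplasmic reticulum stress protein, by 0.61 ± 0.11, Bambi, a decoy receptor of the TGF-beta family, by 0.64 ± 0.16, and Ctsk, a lysosomal protease, by 0.61 ± 0.14. Usp2, a deubiquitinase, was not well above background on any of the 5 fed arrays and above it on all 5 fasted arrays. Its level was at least 1.18-fold higher in fasted rats, a bound set against the dimmest probes well above background. Those 5 fasted arrays alone satisfy the filter of at least 4 arrays well above background. Usp2 thus could enter the test through the group in which it was high, and its p-value is not given as support.

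The other stress and growth lists are to be read beside all genes, of which 0.466% were called higher and 0.379% lower, and 5.29 and 5.25% had an unadjusted p under 0.05. Of these lists, growth arrest genes had 2 of 19 called higher (Cdkn1a and Gadd45a) and the circadian clock 2 of 19 (Per1 and Nfil3). Over the clock list 3 genes were higher and 3 lower at an unadjusted p under 0.05, Nr1d1 among the lower (-0.25). Endoplasmic reticulum genes had 1 of 16 called higher (Herpud1) and metal and oxidative stress genes 1 of 18 (Mt1). NF-kB targets had 0 of 18 called, 4 higher and 2 lower at an unadjusted p under 0.05, and autophagy and lysosome genes 0 of 20. Cell cycle genes had 0 of 34 called, with a median of -0.05, and ribosomal proteins 0 of 64, with a median of 0.02.

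**Figure D3:**
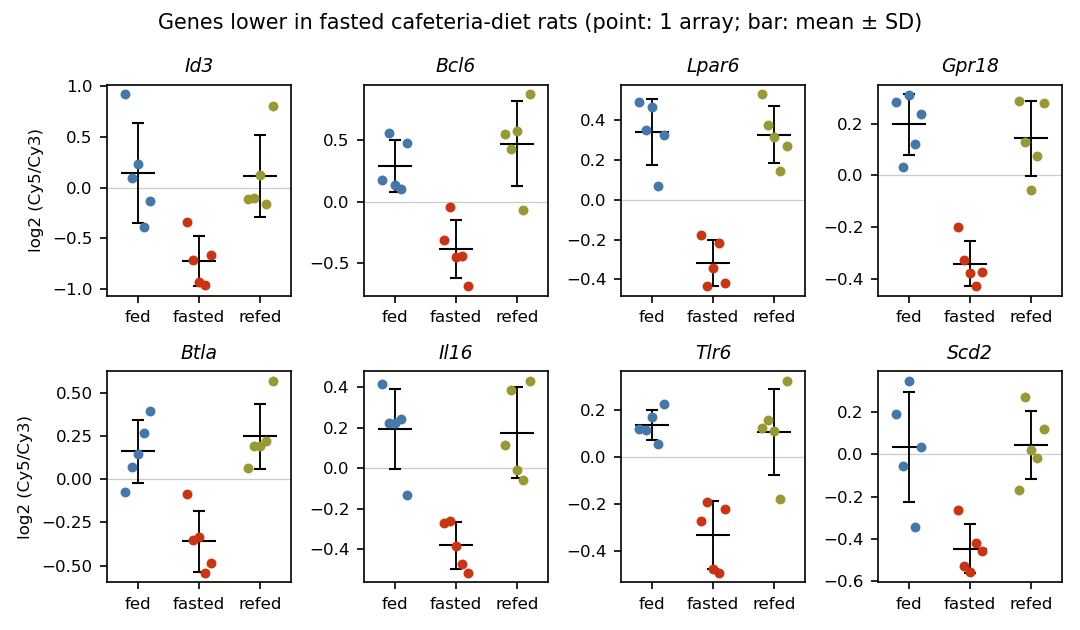
Log2 ratio of Cy5 to Cy3 for 8 genes that were lower in fasted cafeteria rats, with 1 point for each array (5 fed, 5 fasted, 5 refed) and the mean ± SD as a bar. Fed and fasted points overlap in Id3 and Scd2 and are apart in the other 6 panels.

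Among the falls the largest was that of Id3, an inhibitor of E protein transcription factors in lymphocytes. It was at 0.92, 0.09, 0.23, -0.39 and -0.13 in the fed rats and at -0.34, -0.72, -0.93, -0.96 and -0.66 in the fasted rats. Fed rat 10 lay below fasted rat 2. Id3 fell by 0.87 ± 0.19 (SE; limma adjusted p = 0.0294), while its relative Id1 rose by 0.94 ± 0.22 and Id2 differed by -0.13. Id1 was at -0.91, 0.06, -0.78, -0.01 and -0.32 when fed and at 0.82, 1.15, 0.31, 0.03 and 0.42 when fasted, so 1 fed rat lay above 1 fasted rat. Of the 14 measured genes of Id proteins and TGF-beta signalling, Id1 and Id3 were the 2 called, beside 0.466% of all genes called higher and 0.379% lower. The list had 7 members higher and 7 lower, with a median of -0.0006.

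The smallest p-values among the named falls were those of 2 receptors. Lpar6, a receptor for lysophosphatidic acid, was at 0.49, 0.35, 0.47, 0.07 and 0.32 in the fed rats and at -0.18, -0.43, -0.34, -0.22 and -0.42 in the fasted rats. It fell by 0.66 ± 0.10 (limma adjusted p = 0.00359), by 0.92 on slide 1 and by 0.53 on slide 8. It was past the threshold in 20 of 22 alternative settings, all but median centring and the slide block. Gpr18, a receptor for lipid mediators found on lymphocytes, was at 0.28, 0.03, 0.31, 0.12 and 0.24 when fed and at -0.20, -0.33, -0.38, -0.43 and -0.38 when fasted. It fell by 0.54 ± 0.09 (limma adjusted p = 0.00932), also past the threshold in all but the same 2 of 22 settings. Btla, an inhibitory receptor of B and T cells, fell by 0.52 ± 0.11, and Il16, a cytokine that binds Cd4, by 0.58 ± 0.12. Tnfaip8l2, which restrains Toll-like and T cell receptor signalling, fell by 0.57 ± 0.11. Casp8, which starts death receptor apoptosis, fell by 0.30 ± 0.07.

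No lymphocyte marker on the lists was called, beside 0.466% of all genes called higher and 0.379% lower. The counts of direction below are to be read beside 51.8% of all genes with a higher value in fasted rats. Of 13 B cell markers, 12 were lower and 0 called, with a median of -0.24 and 3 lower at an unadjusted p under 0.05 (5.25% of all genes). Cd79b, a part of the B cell receptor, differed by -0.36 (limma adjusted p = 0.412). The mean B cell marker level ran from -0.19 to 0.29 in fed rats and from -0.31 to 0.10 in fasted rats, so the groups overlapped. Of 21 T cell markers 17 were higher, with a median of 0.08, and of 17 NK cell markers 13 were lower, with a median of -0.11. Neutrophil markers had a median of 0.20, with fasted rat 5 at a mean of 0.87 and the other 4 fasted rats between -0.32 and 0.14. S100a8, an abundant neutrophil and monocyte protein, differed by 0.78 (adjusted p = 0.645 by limma). Platelet and red cell markers had medians of 0.18 and 0.13. With the mean of the platelet markers as a covariate, 266 genes were called. The part of B cell number in the falls was not tested.

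Toll-like receptor genes had 1 call in 14, a fall, beside 0.379% of all genes called lower and 0.466% higher. Of these 14, 2 were higher and 2 lower at an unadjusted p under 0.05, beside 5.29 and 5.25% of all genes. Tlr6, a partner of Tlr2 for bacterial lipopeptides, was at 0.12, 0.12, 0.17, 0.06 and 0.23 in the fed rats and at -0.27, -0.19, -0.48, -0.49 and -0.22 in the fasted rats, with no overlap. It fell by 0.47 ± 0.10 (limma adjusted p = 0.0287), and in control rats by 0.59 (limma adjusted p = 0.0252). Tlr4 differed by -0.35 (adjusted p = 0.351 by limma), while its co-receptor Cd14 differed in the opposite direction, as given above.

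Genes of lipid metabolism had few calls. Of 42 measured genes of fatty acid oxidation and PPAR targets, 0 were called, beside 0.466% of all genes called higher and 0.379% lower. At an unadjusted p under 0.05, 2 were higher and 2 lower (5.29 and 5.25% of all genes), and the list's median was -0.02. Cpt1a, the gatekeeper of mitochondrial fatty acid uptake and a textbook fasting gene, stood at 0.12 ± 0.12 (SD, n = 5) when fed and 0.17 ± 0.09 when fasted. In control rats it differed by 0.33 (limma adjusted p = 0.0701). Slc27a2, a fatty acid transporter, was either near 0 or far below it in single rats. It was between 0.10 and 1.38 in the 5 fed rats, and at 0.95, -0.55, -4.86, -4.26 and 0.68 in the fasted rats (difference -2.29, limma adjusted p = 0.614).

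Of 26 genes of sterol synthesis and uptake, 1 fell and 0 rose, beside 0.379 and 0.466% of all genes. At an unadjusted p under 0.05, 7 were lower and 0 higher, beside 5.25 and 5.29% of all genes. Msmo1, a sterol methyl oxidase, fell by 0.52 ± 0.13 (limma adjusted p = 0.0463), from between -0.02 and 0.53 when fed to between -0.62 and 0.08 when fasted, so the groups overlapped. Sqle, Fdft1, Hmgcs1 and Dhcr7 of the same pathway differed by -0.43, -0.32, -0.31 and -0.30, none past the threshold (limma adjusted p = 0.116, 0.0951, 0.260 and 0.106). Of 22 genes of fatty acid and triglyceride synthesis, 1 fell. This was Scd2, a stearoyl-CoA desaturase, which fell by 0.48 ± 0.11 (limma adjusted p = 0.0308), and its 2 other probes had the same sign. Fasn, the fatty acid synthase, differed by -0.08 and Srebf1, which drives it, by -0.10. On slide 8 Msmo1 fell by 0.11 and Scd2 by 0.21, against 0.98 and 0.71 on slide 1.

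The fasted changes were compared with those in control rats, which were measured on other arrays against the same reference pool. In control rats 43 genes were called (0.177% of genes tested), of which 15 fell in both diets and 0 rose in both. The 15 included Bcl6, Lpar6, Tlr6, Scd2, Mterf1 and Pars2, with changes of -1.05, -0.53, -0.59, -0.56, -0.47 and -0.65 in control rats. The sign of the change was shared by control rats for all 205 genes called on the cafeteria diet, against 62.8% of all genes. Of these, 168 also had an unadjusted p under 0.05 with that sign in control rats (82.0%, against 9.64% of all genes). Both tests share one estimate of each gene's spread. The fasted arrays of the 2 diets were spread over the runs in opposite ways. In the first run were 4 of 5 fasted control arrays, and in the second 4 of 5 fasted cafeteria arrays. The fed control arrays were split 2 and 2 over the first and second run, and the fed cafeteria arrays 4 and 1. Among the 205, the change was larger in size in cafeteria rats for 184, which the choice of genes on that diet favours. A test of the difference between diets called 0 genes (0% of genes tested; 777 at an unadjusted p under 0.05), with a smallest adjusted p of 0.689. Cxcl2 differed between diets by 2.19 (unadjusted p = 0.0433 by limma) and Cdkn1a by 0.71 (unadjusted p = 0.0226), neither past the adjusted threshold. Il1b, Slc27a2 and Cpt1a, with differences between diets of 1.17, -5.03 and -0.28, ranked ahead of both, also short of the adjusted threshold. Slc27a2 changed by 2.74 in control rats against -2.29 in cafeteria rats, and Il1b by -0.39 against 0.78. Cpt1a changed by 0.33 in control rats against 0.05 in cafeteria rats.

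**Figure D4:**
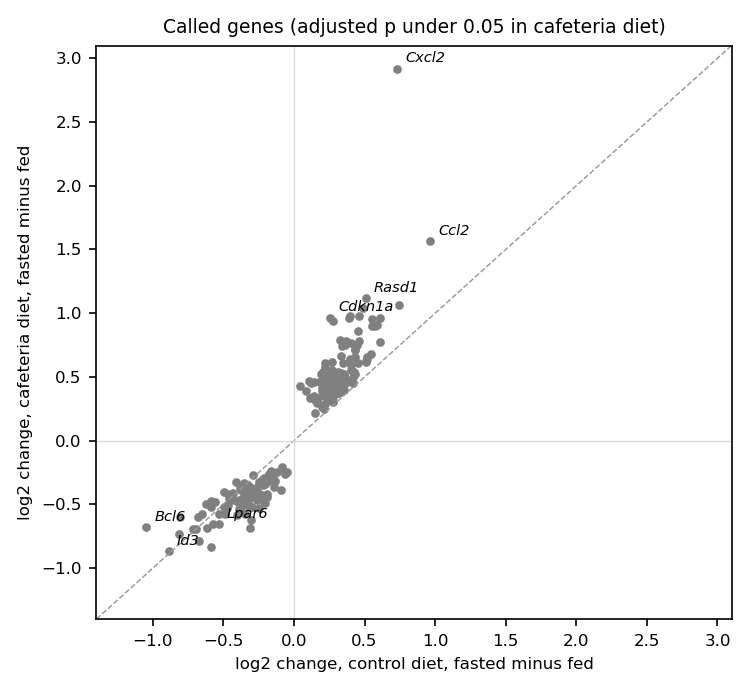
Log2 change from fed to fasted in control rats (x axis) against cafeteria rats (y axis) for the 205 genes called in cafeteria rats, 1 point a gene, with a dashed line of equal change. All 205 points have the same sign on both axes, and Cxcl2 (0.73 and 2.92) lies farthest above the line.

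The refed cafeteria rats give a further level for the called genes, after 6 h of food. Their arrays took part in the filter and in the estimate of each gene's spread, and the fed and fasted arrays beside which they are set are those that chose the genes. The values are therefore a description, with no test. The refed mean lay nearer to the fed than to the fasted mean in 197 of the 205 called genes. The same share over all genes was not computed. Gadd45a, Klf9 and Msmo1, given below, are exceptions, with refed means nearer to the fasted mean. Ccl2 was at -0.70 ± 0.28 (SD, n = 5) in refed rats against -0.84 ± 0.60 in fed rats, and Bcl6 at 0.47 ± 0.34 against 0.29 ± 0.21. Gadd45a was at 0.14 ± 0.23 in refed rats against 0.18 ± 0.13 in fasted rats. Klf9 was at 0.05 ± 0.30, between its fed (-0.43 ± 0.23) and fasted (0.48 ± 0.29) levels. Msmo1 was at -0.11 ± 0.17, also nearer to its fasted mean of -0.25 ± 0.30.

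Promoters were searched for motifs of factors that respond to fasting signals, in the 250 bases before each RefSeq start. A promoter was found for 49 of the genes that rose and 52 of those that fell. The cyclic AMP element TGACGTCA, which CREB binds after glucagon or adrenaline signals, occurred in 5 of 49 risen genes (10.2%) and 1 of 52 fallen genes (1.92%), against 1.70% of all promoters and 2.83% of those of measured genes. Its half-site TGACG, which the full element contains, occurred in 22 of 49 (44.9%) and 11 of 52 (21.2%), against 27.4% of measured genes. The glucocorticoid half-site AGAACA occurred in 10.2% of risen and 13.5% of fallen genes, against 11.4% of measured genes. The palindromic core of the glucocorticoid element, ACANNNTGT, occurred in 3 of 49 (6.12%) and 5 of 52 (9.62%), against 3.79%. The forkhead element TGTTTAC occurred in 4.08 and 1.92%, and the E-box CACGTG in 4.08 and 9.62%, against 2.14 and 8.07% of measured genes. All were searched on both strands, and these counts are a description with no test. The promoters of 3 risen genes with the full cyclic AMP element are shown, with the matches in capitals, all from the minus strand of GRCr8 (Heca chr1:14395192-14395441, Cdadc1 chr15:37931785-37932034, Ccnl1 chr2:152507469-152507718).

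Heca: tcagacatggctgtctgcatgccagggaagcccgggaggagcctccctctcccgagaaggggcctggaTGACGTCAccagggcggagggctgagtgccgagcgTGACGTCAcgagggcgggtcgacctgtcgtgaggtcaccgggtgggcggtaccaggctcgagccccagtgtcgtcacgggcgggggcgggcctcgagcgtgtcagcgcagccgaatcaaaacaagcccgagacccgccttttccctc
Cdadc1: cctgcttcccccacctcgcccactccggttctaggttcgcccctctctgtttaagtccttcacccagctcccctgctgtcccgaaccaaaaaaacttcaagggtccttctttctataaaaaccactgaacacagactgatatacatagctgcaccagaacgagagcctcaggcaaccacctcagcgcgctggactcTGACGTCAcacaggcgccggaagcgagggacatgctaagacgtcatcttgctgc
Ccnl1: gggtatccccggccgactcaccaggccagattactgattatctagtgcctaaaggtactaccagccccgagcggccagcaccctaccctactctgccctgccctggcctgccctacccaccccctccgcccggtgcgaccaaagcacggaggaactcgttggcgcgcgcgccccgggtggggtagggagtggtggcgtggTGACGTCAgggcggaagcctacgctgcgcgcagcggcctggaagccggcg

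Heca, the relative of the fly gene headcase, has 2 matches, and it rose by 0.46 ± 0.10 (limma adjusted p = 0.0258). Cdadc1, a cytidine deaminase domain protein, rose by 0.47 ± 0.10 (limma adjusted p = 0.0219). Ccnl1, a cyclin linked to splicing, rose by 0.42 ± 0.10 (limma adjusted p = 0.0447). Their differences on slides 1 and 8 were 0.67 and 0.18, 0.64 and 0.27, and 0.62 and 0.26.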

How the data were processed

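Each array was the deposited scanner output of 1 two-colour hybridisation on Agilent rat whole-genome arrays, with the rat in Cy5 and the common pool in Cy3, per the labels. The mean signal and median background of each spot are intensity values that the authors deposited, read from the images with Agilent Feature Extraction 9.5.1.1, per the file headers. Background was corrected here by normexp (offset 50), and the log2 ratio of the deposited intensities was normalised within each array by loess (span 0.3), with limma 3.58.1 in R 4.3.3. Control and outlier spots had no weight, 526 outlier values were dropped, and spots of a probe were averaged. The authors' deposited table of log2 Cy5 values served as an alternative. Of 41012 probes, 28242 were well above background in Cy5 on at least 4 of 29 arrays, per the flag of the deposited files. The brightest probe stood for each of 24272 genes, of which 11863 have a symbol; 20409 probes were named through RefSeq (GRCr8) by accession (10778), symbol (5147), synonym (3456) or gene number (1064), and 146 names were set aside because the chromosome differed. A linear model of the 6 groups was fitted over all arrays, with no covariate, and p-values were adjusted over all genes by Benjamini-Hochberg; calls have an adjusted p under 0.05.

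Replicates were separate rats. Rat numbers recur between diets and not between fed and fasted rats, and the 9 same-numbered pairs correlated between -0.15 and 0.11, so they were not treated as pairs. The number of arrays limits the precision. Named genes were the 20 largest called rises and falls with a symbol, the called members of each list, the 5 genes of smallest interaction p and a short list of metabolic genes, of which the text gives part; further list members and the genes of the promoter and closing paragraphs were named after their values were seen. The members and lists were chosen with earlier results of these data known. Alternatives were other background and scaling choices, filters, batch terms, array weights and leaving out each array; the random slide block was added after seeing the data. The fit was tested on simulated data.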

Additional observations from a re-analysis of the deposited data

Results flagged for a closer look

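Single arrays stood apart from the other 4 of their group, by Dixon's test at the 95% level, in 9 of 162 tests (81 named genes in the fed and in the fasted cafeteria group). The level of 1 in 20 holds for independent tests. These tests share the same arrays, and many of the genes were chosen by their values, so the count cannot be judged against it. Fasted rat 5 was highest for Cxcl1 and Cxcl3 (gap over range 0.744 and 0.895). Fasted rat 11 was highest for Chst2 (0.812), fasted rat 8 for Dhcr7 (0.728), and fasted rat 14 was lowest for Zfp36l2 (0.729). Fed rat 13 was highest for Nr3c1 (0.749) and Oas1a (0.770), and fed rat 1 for Tyw3 (0.742) and Mettl18 (0.722).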

How the results depend on the processing

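In cafeteria rats the count of 205 called genes became 0 with median centring and no loess, 1 with the slide as a block, 22 with the run as a block, 68 from the 10 cafeteria arrays alone and 435 at an adjusted p under 0.1. It ranged from 10 to 302 when 1 array was left out. It was between 141 and 266 under the other alternatives, among them the authors' value table (252) and the random slide block (226). In control rats the count of 43 became 16 with the scanner's processed signals, 2 with median centring, 3 from Cy5 alone, 1 from the authors' value table, 15 without the filter, 16 with the slide as a block and 23 over all probes, and ranged from 6 to 81 when 1 array was left out. The interaction had 0 calls under every alternative run, and the replicate block, with the rat number shared between diets, also gave 0 (645 at an unadjusted p under 0.05). Of the named genes, 3 that were not called changed sign: Nr3c1 (0.0055 with median centring, 0.013 without fed rat 13, and -0.075 to 0.013 over all arrays left out), Cpt1a (-0.0043 from Cy5 alone, -0.030 from the authors' table) and Srebf1 (0.0022 without fed rat 1, and -0.17 to 0.0022 over all arrays left out). The cause of these shifts was not tested. Genes near background give little more than a bound, as for Usp2.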

Other observations

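Falls also included small groups of genes that were named after their values were seen and have no test as groups. Of mitochondrial genes, Mterf1 and Mterf2, of the mitochondrial transcription terminator family, fell by 0.42 ± 0.09 and 0.39 ± 0.08 (SE) on the log2 scale. Cox20 and Coa4, assembly factors of cytochrome c oxidase, fell by 0.58 ± 0.12 and 0.51 ± 0.12, and Pars2, the mitochondrial prolyl-tRNA synthetase, by 0.57 ± 0.13. Of RNA-modifying enzymes, Trmt11, Trmt12 and Tyw3, which modify transfer RNA, fell by 0.43, 0.38 and 0.26, and Bcdin3d and Mepce, methyltransferases that act on the ends of small RNAs, by 0.53 and 0.35. Mettl18, a protein histidine methyltransferase, fell by 0.29. Among the rises, Dcp1a, which takes part in decapping, and Cnot6, a deadenylase, rose by 0.50 ± 0.10 and 0.54 ± 0.12. The adjusted p-values of these genes by limma lay between 0.0128 for Trmt12 and 0.0467 for Tyw3 and Mettl18.

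Interferon response genes had 0 of 38 called, beside 0.466% of all genes called higher and 0.379% lower. At an unadjusted p under 0.05, 8 were higher and 0 lower (5.29 and 5.25% of all genes), and the list's median was 0.19. The mean of the list was 0.57 in fasted rat 14 and between -0.10 and 0.01 in the other 4 fasted rats, and without fasted rat 14 the list's median was 0.02. Oas1a, an RNA-sensing enzyme, was at 1.79 in fasted rat 14 and between -0.46 and 0.33 in the other fasted rats. Ifit1 was highest in fasted rat 5 (1.70) and fasted rat 14 (1.03).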
